A study of Homo sapiens with 9 samples.

Results

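The genes described here are 37 named members of the antioxidant and NADPH system that the transcription factor NRF2 is known for, chosen by symbol among the 60591 symbols of the count table. All 37 were found and all 37 passed the filter on low counts. They comprise 4 regulators, 10 glutathione genes, 11 thioredoxin and peroxiredoxin genes, 4 genes of NADPH supply, 3 genes of superoxide and hydrogen peroxide removal and 5 quinone, carbonyl or epoxide enzymes. The cells were uCaco-2, the undifferentiated, proliferating form of Caco-2, which is a human colon adenocarcinoma line and so a model from a single tumour. Control cells received fresh medium, the cells labelled CoCl2 received 300 μM cobalt (II) chloride and the cells labelled Oxy received 5 μM of an oxyquinoline derivative (OD), each for 24 h, with 0.5% DMSO in all 3 conditions. Each condition had 3 biological replicates by the study's methods, all from the same line. Both agents are used to inhibit the prolyl hydroxylases that mark hypoxia-inducible factor for destruction, and the comparisons ask how genes of the redox system responded to each agent and whether the responses differed.

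NRF2, encoded by NFE2L2, is held in the cytosol by KEAP1, an adaptor whose reactive cysteines sense oxidants and electrophiles and which presents NRF2 for degradation. When KEAP1 is modified, NRF2 accumulates, pairs with small MAF proteins such as MAFG and binds antioxidant response elements in front of genes for glutathione synthesis, the thioredoxin system, NADPH regeneration and quinone reduction. Glutathione and thioredoxin are the main thiol reductants of the cell, and both are kept reduced with electrons from NADPH.

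The libraries held 15998136 to 18298190 counts in control cells, 16286502 to 24209427 with CoCl2 and 16387054 to 19623776 with OD. Levels are given as CPM, counts brought to a common depth after the libraries were scaled with the TMM factors of edgeR, and changes as log2FC, the log2 of the fold change, with its standard error (SE). These factors ranged from 0.770 to 0.795 with CoCl2, from 1.14 to 1.15 with OD and from 1.11 to 1.12 in control cells, and the share of counts in the 50 most abundant genes was 21.7% to 22.3% with CoCl2 and 15.7% to 16.2% in the other 6 libraries. Of the 6 markers of intestinal epithelium examined, all were counted in every library (786 to 125922 counts), while of the leukocyte markers PTPRC had at most 3 counts and CD14 had 35 to 101, lower with OD by a log2FC of -1.08 (adjusted p = 1.59e-08, edgeR). VIL1, a brush-border actin binder in that list, was lower with CoCl2 by a log2FC of -2.45 (SE 0.044, adjusted p = 1.24e-51, edgeR) and its part in the results below was not tested. The summed level of the 6 markers was 9990 to 10454 CPM in control cells, 11742 to 12606 with CoCl2 and 9451 to 9972 with OD. The summed fibroblast markers were 18.7 to 21.5 CPM in control cells, 17.1 to 20.2 with CoCl2 and 26.3 to 27.3 with OD. Of these, DCN was at 0 in all control libraries, while COL1A1 had 238 to 308 counts and COL3A1 85 to 105 there. With OD the log2FC was 0.59 for COL1A1, 1.78 for LUM and -0.40 for COL3A1. The summed leukocyte markers were 4.46 to 5.49, 4.93 to 5.3499 and 2.29 to 2.62 CPM and those of endothelium 2.69 to 3.17, 2.25 to 2.86 and 2.88 to 3.41 in the same order of groups, and the part of these cell types in the results was not tested. The RNA was measured in bulk, so fewer cells expressing a gene and less RNA per cell cannot be told apart.

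The antioxidant response element has the core TGACNNNGC, and promoter windows of 250 bases before to 50 bases after the start were available from RefSeq (GRCh38.p14) for 30 of the 37 genes, with the exception of GSS, GSR, TXN2, PRDX1, PRDX6, SOD1 and CBR3. On either strand the core was present for 8 of these 30 genes (26.7%), CBR1, EPHX1, GCLM, GPX2, KEAP1, ME1, PGD and TXNRD1, against 16.1% of all 27305 symbols in that table. The stretches below are examples of a core before the start of genes that responded to CoCl2. KEAP1, which also responded, holds cores at -54 and -31 that are not printed. Each is read in the direction of the gene, and capitals mark the core or, where it lies on the opposite strand, its reverse complement. The first gives all 250 bases before the most upstream start of TXNRD1, at chr12:104215529-104215778 on the plus strand, with a core beginning at position -99 from the start. A further core on the opposite strand begins at -8 and is left in lower case, since its last base lies past the printed stretch. Another, TGACAAAGC on the opposite strand, begins at -102 from a start of TXNRD1 further downstream and is not printed.
TXNRD1: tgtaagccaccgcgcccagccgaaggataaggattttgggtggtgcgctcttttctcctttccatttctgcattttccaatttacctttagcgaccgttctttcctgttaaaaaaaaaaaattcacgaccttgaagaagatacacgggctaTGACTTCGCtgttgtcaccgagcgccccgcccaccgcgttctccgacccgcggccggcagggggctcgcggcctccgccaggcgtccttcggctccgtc

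Shorter stretches of 59 bases are printed for GPX2 (chr14:64942834-64942892, minus strand, core at -122), GCLM (chr1:93909431-93909489, minus strand, core at -34, overlapping an annotated exon of GCLM), ME1 (chr6:83431155-83431213, minus strand, core at -137) and, from a wider search of the 1000 bases before each start that was chosen after seeing the data, NQO1 (chr16:69726982-69727040, minus strand, core at -455, overlapping an exon of the noncoding RNA NQO1-DT) and TALDO1 (chr11:746486-746544, plus strand, core at -953). In ME1, NQO1 and TALDO1 the core is TGACTCAGC, whose first 7 bases are also the AP-1 site TGACTCA.
GPX2: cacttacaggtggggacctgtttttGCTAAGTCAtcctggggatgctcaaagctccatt
GCLM: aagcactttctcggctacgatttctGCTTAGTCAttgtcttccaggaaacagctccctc
ME1: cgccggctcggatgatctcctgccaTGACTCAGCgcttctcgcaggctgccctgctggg
NQO1: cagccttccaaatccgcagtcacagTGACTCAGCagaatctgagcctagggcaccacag
TALDO1: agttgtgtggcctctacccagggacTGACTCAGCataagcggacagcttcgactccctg

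Of the 8 genes with a core in the 300-base window, 5 were upregulated with CoCl2, with a median log2FC of 1.29 over the 8. Of the 22 genes without it 10 were upregulated and 1 downregulated, with a median of 0.71. The shares over all tested genes were 19.9% upregulated and 23.4% downregulated with CoCl2. In the 1000 bases before the start the core TGACNNNGC was present for 18 of the 30 genes (60%) against 35.5% of all symbols, and the exact form TGACTCAGC for 4 of them (13.3%) against 1.7%. The fourth of these was GPX4, whose counts are given with the glutathione genes. The AP-1 site TGACTCA lay in the 300-base window of ME1 and OSGIN1, or 6.7% of the members and 6% of all symbols. The core ACGTG of the hypoxia response element was in the windows of 10 members (33.3%, against 24.9% of all symbols) and GCGTG in those of 20 (66.7%, against 40.6%), both on either strand. With CoCl2, 2 of the 10 genes with ACGTG were upregulated (median log2FC 0.42) and 13 of the 20 without it (median 1.48). For GCGTG these were 10 of 20 with it (median 0.96) and 5 of 10 without it (median 1.05). The letters of these cores describe the sequence and are not sites of measured binding, and the gene counts do not separate the alternative starts of TXNRD1.

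With CoCl2, 19 of the 37 genes were upregulated and 2, GSS and TXNRD2, were downregulated, a call being an adjusted p under 0.05 together with a log2FC past 1 in either direction (quasi-likelihood test of edgeR, Benjamini-Hochberg over 15944 genes). Over all tested genes 19.9% were called upregulated and 23.4% downregulated in this comparison. With OD only OSGIN1, GPX2 and CBR3 were upregulated and none of the 37 was downregulated, and the background was 9.09% upregulated and 4.16% downregulated. CBR3, with at most 9 counts in an OD or control library, passed the count filter through the CoCl2 libraries, and a fit of the 6 OD and control libraries did not test it and called 2 members. In the direct comparison 19 genes were called higher under CoCl2 and 2 higher under OD, beside 17.5% and 23.8% of all tested genes. CBR3 is among the 19 called higher with CoCl2 in both of its comparisons. Requiring at least 10 counts in every library left CBR3 out. Then 18 members were higher with CoCl2 than in control and 18 than with OD, beside 2126 and 1827 of 12583 tested genes. The median log2FC of the 37 genes was 1.08 with CoCl2, 0.002 with OD and 1.09 between the treatments, beside medians of -0.049, -0.010 and -0.054 over all tested genes. Scaled by library size alone, the calls were 15 up and 4 down with CoCl2 and 12 up and 4 down between the treatments, beside 11.5% up and 36.6% down, and 8.47% up and 37.8% down, of all tested genes. The median of all genes with CoCl2 then moved to -0.55.

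At an adjusted p under 0.05 without the condition on the fold change, 29 of the 37 genes were higher and 6 lower with CoCl2 (40.4% and 42.8% of all tested genes), and 17 were higher and 15 lower with OD (32.3% and 33.3%). The libraries of the groups did not overlap for 29 higher and 6 lower genes with CoCl2 (40.5% and 42.9% of all genes) and for 16 higher and 14 lower genes with OD (33.7% and 34.3%). With OD the log2FC values of the 36 members other than CBR3 lay between -0.62 and 1.18. The group of 37 took 0.546% to 0.564% of all counts in control cells, 1.02% to 1.03% with CoCl2 and 0.582% to 0.591% with OD. This share is taken over the total of each library and so moves with the abundant genes as library-size scaling does.

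**Figure D1:**
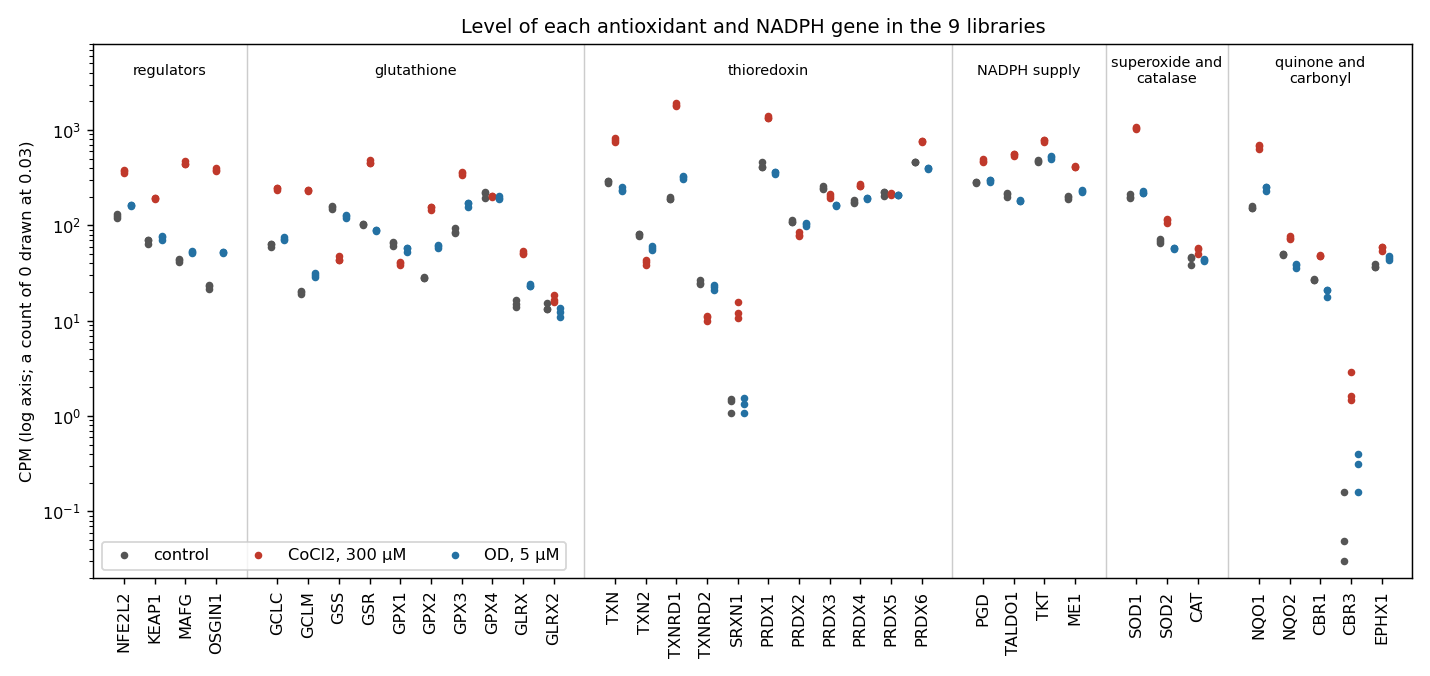
Level of each of the 37 genes in CPM on a log axis, 1 point per library, with control cells in grey, CoCl2 in red and OD in blue, grouped by role. The red points of TXNRD1 average 1845 CPM, against 193 in control cells, while those of GSS lie below both other conditions.

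**Figure D2:**
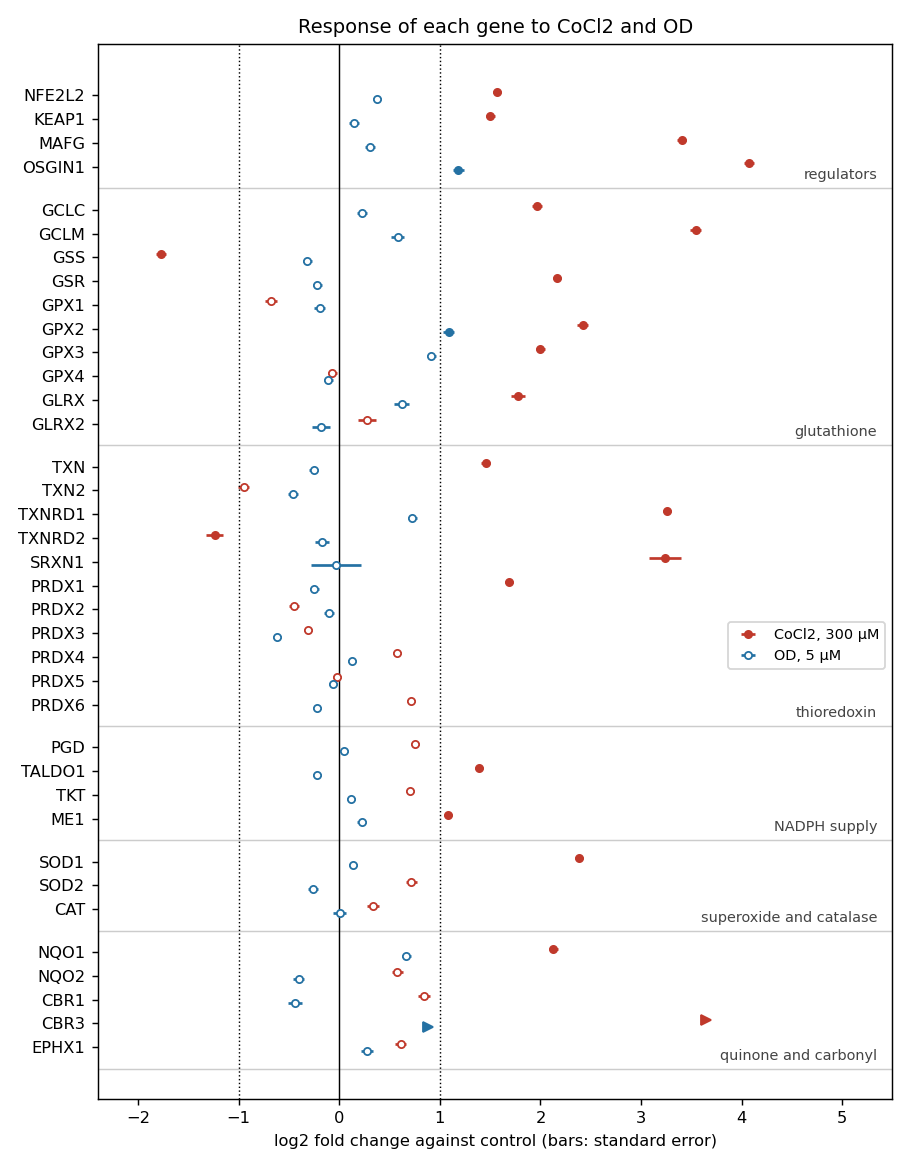
Log2 fold change of each gene against control cells with CoCl2 (red) and OD (blue), with the SE as the bar. Filled circles passed both thresholds and dotted lines mark log2FC values of -1 and 1. Triangles give CBR3 against 3 counts taken for each control library, where it had at most 3, without counting error in the treated libraries.

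The 4 regulators were all upregulated with CoCl2, and OSGIN1 was also upregulated with OD. NFE2L2 itself had 120, 126 and 131 CPM in the control libraries, 383, 377 and 357 with CoCl2 and 160, 163 and 166 with OD. The 3 conditions did not overlap, and the log2FC was 1.57 with CoCl2 (SE 0.043, adjusted p = 1.46e-41 by edgeR) and 0.37 with OD (SE 0.043, adjusted p = 2.08e-11). Parts of the NFE2L2 exons are shared with other genes, 13.6% of the bases on the same strand. KEAP1, which restrains NRF2, averaged 67.6 ± 3.53 CPM in control cells and reached 191 ± 1.53 after CoCl2, beside 74.5 ± 3.19 after OD (SD, n = 3). With CoCl2 it was 2.83-fold higher (adjusted p = 3.79e-38 by edgeR), and scaling by library size alone brought its log2FC to 0.997, just under the threshold. The ratio of KEAP1 to NFE2L2 counts within a library was 0.506 to 0.582 in control cells and 0.501 to 0.539 with CoCl2, so the transcripts of NRF2 and its inhibitor changed by similar factors, and it was 0.430 to 0.485 with OD, below every control library.

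MAFG, the small MAF partner, had 43.9, 41.4 and 42.9 CPM in control cells, 475, 445 and 437 with CoCl2 and 54.5, 51.3 and 52.4 with OD. The CoCl2 libraries stood far above the rest, a 10.6-fold difference from control (log2FC 3.40, SE 0.048, adjusted p = 2.37e-57 by edgeR), beside a log2FC of 0.30 with OD. OSGIN1, an oxidative-stress response gene known as an NRF2 target, lies on chromosome 16 (83931311 to 83966332, plus strand, GRCh38). It had 23.2, 21.8 and 23.8 CPM in control cells, 380, 376 and 399 with CoCl2 and 52.4, 52.5 and 51.0 with OD, in 3 ranges that did not overlap. The log2FC was 4.07 with CoCl2 (SE 0.052, adjusted p = 9.47e-60 by edgeR) and 1.18 with OD (SE 0.057, adjusted p = 8.97e-28), and the difference between the treatments was 2.89 (adjusted p = 2.9e-54). Among the members with more than 3 counts in every control library, OSGIN1 had the largest change with each treatment.

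Glutathione genes went in opposite directions with CoCl2, 6 of the 10 upregulated and GSS downregulated, while with OD only GPX2 passed both thresholds. Glutathione is made in 2 steps, the first by glutamate-cysteine ligase, with the catalytic subunit GCLC and the modifier subunit GCLM, and the next by glutathione synthetase, GSS. GCLM had 19.2, 20.6 and 20.2 CPM in control cells, 237, 235 and 230 with CoCl2 and 28.5, 31.5 and 29.9 with OD. With CoCl2 this was an 11.7-fold rise (log2FC 3.55, SE 0.055, adjusted p = 4.35e-55 by edgeR). GCLC rose by a log2FC of 1.96 to 242 ± 6.68 CPM (SD, n = 3), so the ratio of GCLM to GCLC counts went from 0.321 to 0.326 in control cells to 0.957 to 0.980 with CoCl2. With OD that ratio was 0.395 to 0.447, between the other conditions, and the log2FC values of GCLM and GCLC were 0.58 and 0.23.

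GSS moved the other way. It had 160, 149 and 155 CPM in control cells, 43.9, 43.1 and 48.0 with CoCl2 and 127, 126 and 119 with OD, again without overlap. It fell by 1.78 on the log2 scale with CoCl2 (SE 0.051, adjusted p = 2.76e-40 by edgeR) and had a log2FC of -0.32 with OD (SE 0.045, adjusted p = 9.39e-09). The direct comparison gave a difference of -1.46 (adjusted p = 1.8e-35). GSR, which returns oxidized glutathione to its reduced form with NADPH, went from 103 ± 1.57 CPM to 461 ± 20.4 with CoCl2 and to 88.4 ± 1.72 with OD (SD, n = 3). Its log2FC was 2.17 with CoCl2 and -0.22 with OD (adjusted p = 2.51e-05 by edgeR), so the 2 treatments stood on opposite sides of control.

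The glutathione peroxidases, which use glutathione to reduce peroxides, differed among themselves. GPX2, the gastrointestinal form, had 28.4, 27.9 and 28.9 CPM in control cells, 157, 145 and 155 with CoCl2 and 61.2, 61.8 and 57.8 with OD. Both treatments stood clear of control, with log2FC values of 2.42 (SE 0.054, adjusted p = 1.9e-46 by edgeR) and 1.09 (SE 0.057, adjusted p = 5.32e-26). GPX3, the secreted form, rose to 353 ± 12.1 CPM with CoCl2 from 88.3 ± 5.48 (SD, n = 3; log2FC 2.00), and with OD its log2FC of 0.91 (SE 0.047) lay just under the threshold. GPX1, the ubiquitous cytosolic form, had log2FC values of -0.68 with CoCl2 and -0.19 with OD, both with non-overlapping libraries. Another gene of the same strand shares 39.9% of its exonic sequence. GPX4, which reduces lipid peroxides, had 194 to 223 CPM in control cells, 197 to 205 with CoCl2 and 191 to 201 with OD, with overlap throughout (log2FC -0.070 with CoCl2, adjusted p = 0.136 by edgeR, and -0.11 with OD, adjusted p = 0.0243).

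Of the glutaredoxins, which reduce mixed disulfides with glutathione, GLRX rose from 15.2 ± 1.36 to 52.0 ± 2.06 CPM with CoCl2 (SD, n = 3; log2FC 1.77) and had a log2FC of 0.62 with OD. The mitochondrial GLRX2 had a log2FC of 0.27 with CoCl2 (adjusted p = 0.0048 by edgeR), which turned to -0.24 under library-size scaling, and -0.18 with OD (adjusted p = 0.0752).

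In the thioredoxin group 4 of 11 genes were upregulated with CoCl2, TXNRD1, SRXN1, PRDX1 and TXN, and TXNRD2 was downregulated. With OD none of the 11 passed both thresholds, and 7 were lower and 2 higher at an adjusted p under 0.05. Thioredoxin reductases are selenium-containing flavoenzymes that pass electrons from NADPH to thioredoxin. TXNRD1, the cytosolic form on chromosome 12 (104215779 to 104350307, plus strand, GRCh38), had 199, 191 and 189 CPM in control cells, 1904, 1854 and 1776 with CoCl2 and 324, 328 and 305 with OD. The log2FC was 3.26 with CoCl2 (SE 0.043, adjusted p = 9.32e-59 by edgeR) and 0.73 with OD (SE 0.042, adjusted p = 6.13e-24), and the difference between the treatments was 2.53 (adjusted p = 1.37e-53).

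TXNRD2, the mitochondrial reductase, had 24.6 to 26.5 CPM in control cells, 9.95 to 11.2 with CoCl2 and 21.1 to 23.9 with OD, without overlap. It was downregulated with CoCl2 (log2FC -1.24, SE 0.084, adjusted p = 2.91e-21 by edgeR), and its log2FC with OD was -0.17 (adjusted p = 0.0297). TXN, cytosolic thioredoxin, went from 286 ± 9.25 to 784 ± 33.2 CPM with CoCl2 (SD, n = 3; log2FC 1.46, or 0.95 under library-size scaling) and to 239 ± 13.9 with OD (log2FC -0.25, adjusted p = 4.19e-07). TXN2, its mitochondrial counterpart, had a log2FC of -0.95 with CoCl2, short of the threshold of 1 in size, and -0.46 with OD. It passed with upper-quartile factors (-1.052), under library-size scaling (-1.457) and without a count filter (-1.016).

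SRXN1 encodes sulfiredoxin, which repairs overoxidized peroxiredoxins. It had 27, 31 and 19 counts in the control libraries, 254, 156 and 206 with CoCl2 and 34, 30 and 20 with OD. The rise with CoCl2 (log2FC 3.24, SE 0.163, adjusted p = 8.71e-27 by edgeR) was clear of both other conditions, which overlapped each other. As ENSG00000270299 covers 90.7% of its exonic sequence on the same strand, its level depends on how such reads were counted.

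The peroxiredoxins, thiol peroxidases most of which thioredoxin keeps reduced, did not move together. PRDX1, a cytosolic form, had 406 to 459 CPM in control cells, 1349 to 1411 with CoCl2 and 346 to 365 with OD, with log2FC values of 1.69 and -0.25 (adjusted p = 9.08e-44 and 5.21e-07 by edgeR). PRDX6 had log2FC values of 0.71 and -0.22, and PRDX4, the form of the endoplasmic reticulum, 0.57 and 0.13, each at an adjusted p under 0.05. PRDX3, the mitochondrial form, was lower in both, at 241 to 262 CPM in control cells, 194 to 212 with CoCl2 and 160 to 164 with OD. Its log2FC was -0.31 with CoCl2 and -0.62 with OD, and under library-size scaling the difference between the treatments turned from 0.31 to -0.23. PRDX2 had log2FC values of -0.45 and -0.11. PRDX5 had 204 to 225 CPM in control cells, 209 to 219 with CoCl2 and 206 to 210 with OD, with log2FC values of -0.024 and -0.061 and an SE of 0.042 in both comparisons.

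The pairing of cytosolic and mitochondrial forms was examined as the ratio of their counts within each library, a measure that no scaling between libraries can change. In all 5 pairs the ratio was higher in every CoCl2 library than in every control library, and also in every OD library than in every control library. Each pair holds 1 cytosolic form, and the pattern depends on that choice. Whether other gene pairs separate as often was not examined. PRDX2, which was not paired, had a log2FC of -0.45 with CoCl2 beside -0.31 for PRDX3, and -0.11 beside -0.62 with OD. GPX1, also in no pair, had -0.68 with CoCl2. TXNRD1 to TXNRD2 was 7.48 to 7.78 in control cells, 160 to 191 with CoCl2 and 13.5 to 14.6 with OD. TXN to TXN2 was 3.52 to 3.59, 17.2 to 21.1 and 3.85 to 4.59 in the same order. PRDX1 to PRDX3 went from 1.56 to 1.85 in control cells to 6.36 to 7.29 with CoCl2 and 2.103 to 2.29 with OD. SOD1 to SOD2 was 2.699 to 3.09, 9.05 to 9.75 and 3.79 to 3.94.

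GLRX to GLRX2 was 0.981 to 1.26 in control cells, 2.77 to 3.43 with CoCl2 and 1.68 to 2.08 with OD. On the log2 scale the differences from control over these 5 pairs were 1.49 to 4.495 with CoCl2 and 0.21 to 0.90 with OD. Of the 9 pairs and 3 comparisons examined, all but KEAP1/NFE2L2 with CoCl2 against control (two-sided exact permutation p = 0.5) had groups without overlap, and each of these 26 had the two-sided exact permutation p of 0.1, the smallest that 3 libraries against 3 can give, or 0.104 after Benjamini-Hochberg adjustment. This test therefore cannot bring a single ratio under 0.05 with 3 libraries per group. CBR1/CBR3, in which CBR3 was barely counted, is among the 26. How often the ratios of other gene pairs separate was not examined. For single tested genes, libraries did not overlap for 40.5% higher and 42.9% lower with CoCl2, and for 33.7% and 34.3% with OD. Between the treatments these shares were 40.3% and 43.5%.

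**Figure D3:**
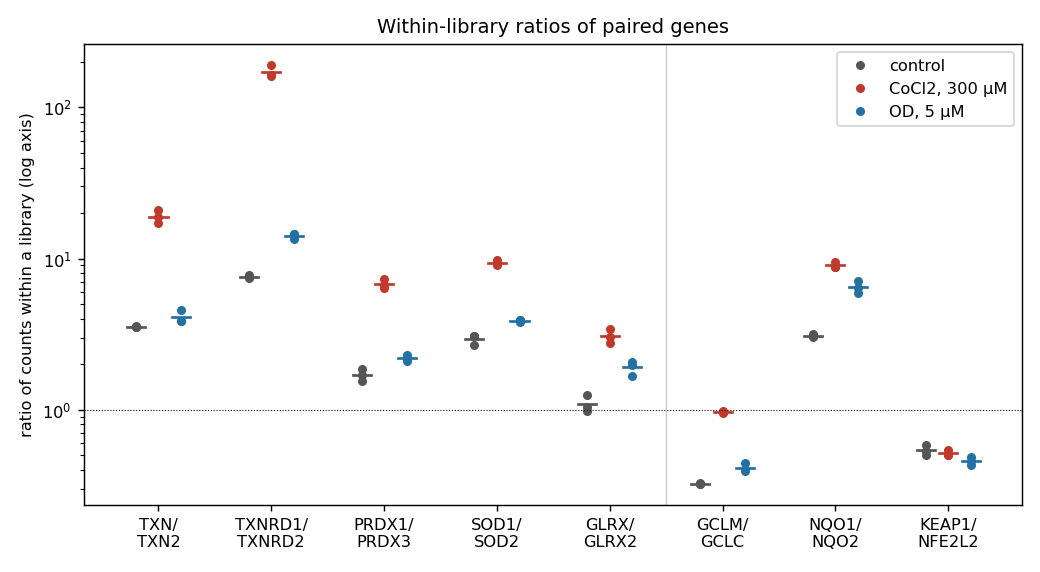
Ratio of the counts of paired genes within each library on a log axis, 1 point per library and a line at the geometric mean. The first 5 pairs set a cytosolic over a mitochondrial form, and for TXNRD1/TXNRD2 the CoCl2 libraries reach 160 to 191 against 7.48 to 7.78 in control cells.

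All 4 genes of NADPH supply were higher with CoCl2 at an adjusted p under 0.05, and TALDO1 and ME1 passed both thresholds. PGD takes part in the oxidative branch of the pentose phosphate pathway, TALDO1 and TKT in its non-oxidative branch, and ME1, cytosolic malic enzyme, makes NADPH from malate. TALDO1 had 214, 200 and 218 CPM in control cells, 557, 540 and 561 with CoCl2 and 185, 179 and 178 with OD, so OD lay below control and CoCl2 far above. Its log2FC was 1.39 with CoCl2 (SE 0.041, adjusted p = 5.37e-40 by edgeR; 0.89 under library-size scaling) and -0.22 with OD (adjusted p = 4.56e-06). ME1 went from 196 ± 6.57 to 414 ± 7.29 CPM with CoCl2 and 228 ± 3.93 with OD (SD, n = 3). The log2FC of ME1 with CoCl2, 1.08, stood close to the threshold and fell under it with upper-quartile factors (0.98) and under library-size scaling (0.57).

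PGD had log2FC values of 0.75 with CoCl2 and 0.049 with OD (adjusted p = 0.284 for the latter), and TKT 0.70 and 0.11. As a share of all counts the 4 genes made up 0.128% to 0.133% in control cells, 0.173% to 0.176% with CoCl2 and 0.138% to 0.141% with OD. The regulators, by the same measure, went from 0.0281% to 0.0298% in control cells to 0.109% to 0.1101% with CoCl2 and 0.0390% to 0.0392% with OD. The thioredoxin group had the largest share in each condition, 0.243% to 0.254% in control cells, 0.431% to 0.444% with CoCl2 and 0.234% to 0.237% with OD, the last below every control library.

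**Figure D4:**
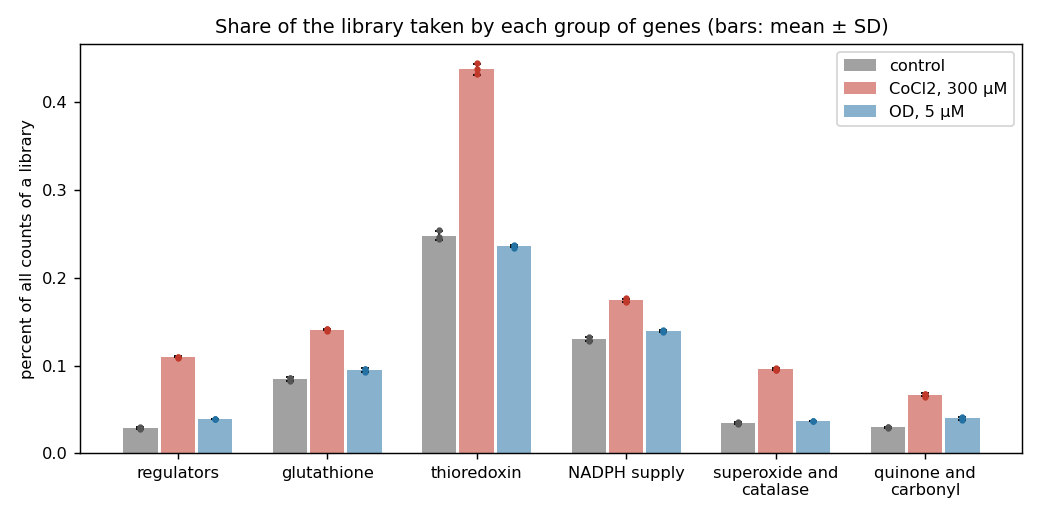
Percent of all counts of a library taken by each group of genes, as bars of the mean with the SD of 3 libraries and 1 point per library. The thioredoxin group takes 0.431% to 0.444% with CoCl2, against 0.243% to 0.254% in control cells.

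Among the enzymes that remove superoxide and hydrogen peroxide, SOD1 alone was upregulated with CoCl2. SOD1, the copper and zinc superoxide dismutase of the cytosol, had 212, 194 and 200 CPM in control cells, 1090, 1031 and 1045 with CoCl2 and 228, 220 and 218 with OD. The CoCl2 libraries stood far apart and those of OD just above control, with log2FC values of 2.39 (SE 0.042, adjusted p = 4.01e-52 by edgeR) and 0.14 (SE 0.042, adjusted p = 0.00311). SOD2, the manganese enzyme of mitochondria, was higher with CoCl2 and lower with OD, with log2FC values of 0.72 and -0.26 (adjusted p = 1.85e-20 and 1.11e-05). CAT, catalase, had a log2FC of 0.33 with CoCl2 (adjusted p = 1.86e-06), which turned to -0.17 under library-size scaling, and 0.0022 with OD (adjusted p = 0.978).

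Of the quinone, carbonyl and epoxide enzymes, NQO1 and CBR3 were upregulated with CoCl2 and the other 3 were higher by smaller amounts. NQO1, a quinone reductase and a standard readout of NRF2 activity, had 160, 151 and 152 CPM in control cells, 701, 639 and 677 with CoCl2 and 253, 227 and 252 with OD. The 3 conditions were well separated, with log2FC values of 2.13 (SE 0.044, adjusted p = 3.83e-48 by edgeR) and 0.67 (SE 0.044, adjusted p = 5.04e-21). NQO2, its paralog, had log2FC values of 0.58 with CoCl2 and -0.40 with OD. The count ratio NQO1/NQO2 was 3.01 to 3.17 in control cells, 8.79 to 9.50 with CoCl2 and 5.93 to 7.13 with OD. EPHX1, microsomal epoxide hydrolase, had log2FC values of 0.61 and 0.28.

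The carbonyl reductases CBR1 and CBR3 are neighbours on chromosome 21. CBR1 had log2FC values of 0.84 with CoCl2 and -0.44 with OD (adjusted p = 5.3e-19 and 1.14e-07 by edgeR) and was called between the treatments, at 1.28. CBR3 was barely counted, with 3, 1 and 0 counts in control cells, 26, 19 and 55 with CoCl2 and 7, 9 and 3 with OD. With 3 counts taken for each control library, its mean level was 12.5-fold higher with CoCl2 and 1.84-fold higher with OD. These folds leave out counting error in the treated libraries. The fitted log2FC of CBR3 with OD was 1.99 (SE 0.727). Its call with OD rests on few reads, since an OD library and a control library both had 3 counts and the adjusted p, 0.0139, went to 0.0534 without control replicate 2, 0.081 without control replicate 3, 0.0723 without OD replicate 2 and 0.127 by DESeq2 on 6 libraries. Of its exonic bases 71.1% lie opposite the exons of CBR3-AS1.

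OD and CoCl2 share the control libraries, so their responses were set side by side through the direct comparison. At an adjusted p under 0.05, 30 of the 37 genes were higher under CoCl2 and 5 higher under OD (40.2% and 43.2% of all tested genes), and GPX4 and PRDX5 were neither. The libraries of the treatments did not overlap for the same numbers, 30 higher and 5 lower (40.3% and 43.5% of all genes). Of the 30, GLRX2, PRDX3, PRDX4, CAT and EPHX1 turned to differences of -0.096 to -0.233 under library-size scaling. Among the genes called higher with CoCl2 than with OD, the largest differences were those of SRXN1 at 3.27, MAFG at 3.10, GCLM at 2.96 and OSGIN1 at 2.89 on the log2 scale. With library size as the only scaling, NFE2L2, KEAP1, GPX2, GPX3, GLRX, NQO1 and CBR1 no longer passed the fold threshold in this comparison, with differences of 0.54 to 0.92.

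A list of 46 other genes, called other pathway genes here, was examined in the same fit, of which 44 passed the count filter. The list was chosen with earlier results of these data known. Being on it does not make a gene an NRF2 target, and the part of NRF2 was not tested. With CoCl2 21 were upregulated and 8 downregulated around a median log2FC of 0.90, beside 19.9% and 23.4% of all tested genes. With OD 9 were upregulated and none downregulated around 0.39, beside 9.09% and 4.16% of all tested genes. The largest called changes with CoCl2 were those of HMOX1, heme oxygenase (log2FC 5.09), the long noncoding RNA LUCAT1 (4.54) and MAFF, another small MAF (4.08). FTL, ferritin light chain (3.58), and SLC7A11, the cystine carrier that feeds glutathione synthesis (3.43), came next. LUCAT1 had 3 to 6 counts in the control libraries, 7 to 11 with OD and 74 to 94 with CoCl2. It therefore passed the count filter through the CoCl2 libraries. HMOX1 averaged 2048 ± 51.1 CPM after CoCl2 and 135 ± 1.06 after OD, from 60.0 ± 2.66 without either (SD, n = 3). SLC7A11 had 18.0 ± 1.24, 195 ± 9.26 and 78.3 ± 2.67 CPM in control, CoCl2 and OD cells, and its log2FC with OD, 2.12, was above that of each member with more than 3 counts in every control library (SE 0.060, adjusted p = 1.28e-39 by edgeR). With OD the other largest calls were PANX2 (2.88), GPX8 (1.97), CHAC1, which degrades glutathione (1.90), and TXNIP, the thioredoxin inhibitor (1.76).

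Other enzymes of NADPH and NADH metabolism, named here after their values were seen, split by compartment with CoCl2. Cytosolic IDH1 had a log2FC of 1.13, while the mitochondrial IDH2, ME2 and NNT had -2.28, -1.46 and -1.32 and were downregulated. With OD the same genes had 0.38, 0.92, -0.79 and -0.12, none past both thresholds. IDH2 thus moved in opposite directions, from 28.2 ± 1.498 CPM to 5.81 ± 0.467 with CoCl2 and 53.2 ± 2.11 with OD (SD, n = 3).

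Compared per length, as CPM per kilobase of the canonical transcript, PRDX1 was the most abundant of the 37 in each condition, with 449 in control cells, 1450 after CoCl2 and 378 after OD. TXN followed in control cells at 388 and SOD1 with CoCl2 at 1179. TXNRD1 stood at place 20 in control cells with 49.97 and at place 4 with CoCl2 with 478, and OSGIN1 went from place 32 to place 14. GSS went the other way, from place 13 at 81.0 to place 33 at 23.6. Neighbours such as PRDX5 and GPX4 in control cells, at 253 and 248, lay within their replicate spread of 5.45% and 7.38%.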

How the data were processed

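Messenger RNA was measured in 9 uCaco-2 libraries, 3 per condition, with single-end reads of 75 nucleotides. Per the methods and the submitters' processing notes, the authors used FastQC 0.11.9, cutadapt 2.10 and STAR 2.7.5b on GRCh38.p13 with GENCODE release 34, and deposited raw counts per gene symbol without normalization. The counting tool, its strand setting and how reads matching several genes were treated are not given in the sources used here.

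TMM factors came from edgeR 4.0.16 (R 4.3.3), which kept 15944 of 60591 symbols by its expression filter and was fitted to 9 libraries with 1 mean per condition (robust quasi-likelihood). Standard errors are the log2 fold change over the root of its F. Replicate pairs differed beyond sampling noise (chi-square per degree of freedom 1.82 to 3.32) and all were kept. The members and lists were chosen with earlier results of these data known. Every member is named, and of other pathway genes the 5 largest called changes per treatment. Positions and overlaps came from GENCODE release 44 on GRCh38, and all 45 RefSeq promoter windows of members equalled the genome sequence. Single ratios, with 0.5 added to each count, had exact two-sided permutation tests. The fit was tested on simulated data. The fold of CBR3, which had at most 3 counts in each control library, was taken against 3 counts in each. It allows for no counting error in the treated libraries and for no other source of error. Alternatives were RLE, upper-quartile or no composition factors, no filter or at least 10 counts in every library, 6 libraries only, DESeq2 1.42.0, a replicate block, each library left out, glmTreat, the adjusted p alone and, for ratios, 5 added to each count. The search of 1000 bases before each start was chosen after seeing the data. The differentiated Caco-2 libraries were not analysed here.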

Additional observations from a re-analysis of the deposited data

How the results depend on the processing

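The main dependence was on scaling between libraries. The member median with CoCl2, 1.08, became 1.129 with RLE factors, 0.979 with upper-quartile factors, 0.573 under library-size scaling, 1.012 when no genes were filtered and 0.931 when 10 counts were required in every library. Between the treatments, from 1.09, it became 0.955 with upper-quartile factors, 0.541 under library-size scaling, 1.02 unfiltered and 0.98 with 10 counts required, and with OD it became 0.043 under library-size scaling. Leaving out 1 library gave medians of 1.052 to 1.095 with CoCl2, -0.043 (without control replicate 3) to 0.062 with OD and 1.036 to 1.114 between the treatments. With CoCl2 the member median minus that of all tested genes hardly moved with the scaling. It was 1.127 with TMM factors and under library-size scaling, and 1.128 with RLE and upper-quartile factors.

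Under library-size scaling 4 members were downregulated with CoCl2 (36.6% of all tested genes) and 4 were lower than with OD (37.8%). With the same scaling 12 members and 11 other pathway genes were higher than with OD (8.47% of all tested genes). By glmTreat, which tests against the fold threshold itself, 1 member was upregulated with OD and 1 was lower with CoCl2 than with OD. Over all 15944 tested genes glmTreat called 720 and 2868 in these directions. With the adjusted p alone members numbered 29 up and 6 down with CoCl2, 17 up and 15 down with OD, and 30 higher and 5 lower between the treatments. Of all tested genes these were 40.4% and 42.8%, 32.3% and 33.3%, and 40.2% and 43.2%. Other pathway genes numbered 33 up with CoCl2 (40.4% of all tested genes) and 29 up and 7 down with OD (32.3% and 33.3%).

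Sign changes under library-size scaling were GLRX2 -0.235 and CAT -0.172 with CoCl2, SRXN1 0.009 with OD and, between the treatments, GPX4 -0.507, GLRX2 -0.096, PRDX3 -0.233, PRDX4 -0.101, PRDX5 -0.508, CAT -0.215 and EPHX1 -0.213. With upper-quartile factors they were SRXN1 0.0 with OD and GPX4 -0.092 and PRDX5 -0.093 between the treatments, unfiltered GPX4 -0.027 and PRDX5 -0.028, with 10 counts required GPX4 -0.014 and PRDX5 -0.015, and with RLE factors PRDX5 0.027 with CoCl2. Leaving out 1 library gave PRDX5 -0.075 to 0.001 with CoCl2, SRXN1 -0.168 to 0.088 with OD and CAT -0.077 to 0.062 with OD. Apart from scaling and filtering, the cause of these changes was not tested.

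Correlations of same-numbered libraries were -0.005 to 0.038, so the numbers were not taken to pair libraries. With a replicate block the calls were 19 up and 2 down with CoCl2, 3 and 0 with OD, and 19 and 2 between the treatments, and no call of a member changed. Depth limits CBR3 and SRXN1 most, which had at most 3 and at most 31 counts in a control library.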
